A study of Homo sapiens with 16 samples.

Results

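GLUT1 and 9 enzymes of glycolysis were followed over time in SUM225 cells exposed to an inhibitor of HER2. The members were SLC2A1 (the gene of GLUT1), HK2, PFKP, ALDOA, PGK1, PGAM1, ENO1, ENO2, PKM2 and LDHA, chosen by gene symbol, and every probe of the table that carried one of these symbols was taken. This gave 15 probes of 10 genes out of 24526 probes of 18631 symbols. SUM225 is a breast cancer line with amplification of HER2, and parallel cultures were harvested every 3 h between 0 and 45 h after CP724,714, a small molecule inhibitor of the HER2 kinase, had been added at 1 µM. RNA of each culture was hybridised to 1 Illumina bead array, so that the 16 arrays are 16 time points with no replicates, and no untreated course was analysed here. Per the labels the cells grew in Ham's F-12 with fetal bovine serum, insulin and hydrocortisone, while the study's methods list a medium without insulin for this line. The cells are 1 line with no other genotype beside it, and the 0 h culture, harvested when the inhibitor was added, is the only reference.

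Glycolysis turns glucose into pyruvate in the cytosol. Glucose enters through GLUT1, is trapped as a phosphate by hexokinase, is committed by phosphofructokinase and is split by aldolase, after which the lower steps make ATP and the last enzymes set the fate of pyruvate. Breast cancer cells driven by HER2 are known for high glucose uptake and lactate output, and several genes of the pathway are known targets of the transcription factors HIF1 and MYC.

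In these arrays members of the pathway moved in opposite directions. HK2 and SLC2A1 rose over 45 h, by 1.85 ± 0.18 and 0.77 ± 0.11 log2 units (SE of the fitted linear change), which correspond to 3.61-fold and 1.70-fold. ENO2, PFKP, PGK1, PGAM1 and LDHA fell, ENO2 by 2.03 ± 0.19 log2 units and LDHA by 0.28 ± 0.08. The LDHA call was lost without the 45 h array. With each run of 4 neighbouring arrays as a factor, a fit with larger errors, 0 member probes were past the threshold. The linear changes of ALDOA, ENO1 and PKM2 were not past the threshold on any of their 8 probes, although 1 PKM2 probe lay close to it and passed under some other settings. The lower level of most falling members was already present at 12 h, and the rise of HK2 continued to the end of the course.

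All 15 member probes passed the filter on dim signals, a detection p-value under 0.05 on at least 3 arrays, which left 16110 probes for testing. Of the 15, 14 were detected on all 16 arrays and a dim ALDOA probe on 9. A cubic course was fitted to each probe with limma, and its error came from the scatter of the 16 arrays around that course. In the F-test of the course 8 member probes depended on time at an adjusted p under 0.05, against 51.3% of all probes tested. A linear rise was found for 2 (26.0% of all probes), a linear fall for 5 (21.7%) and a departure from a straight line for 2, PFKP and ENO2 (19.3%). The share of member probes that changed with time was thus near that of all probes, and more members fell than rose. The median linear change was -0.32 log2 units over the member probes and 0.05 over all probes tested. Their median residual SD was 0.21 log2 units, against 0.19 for all probes.

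**Figure D1:**
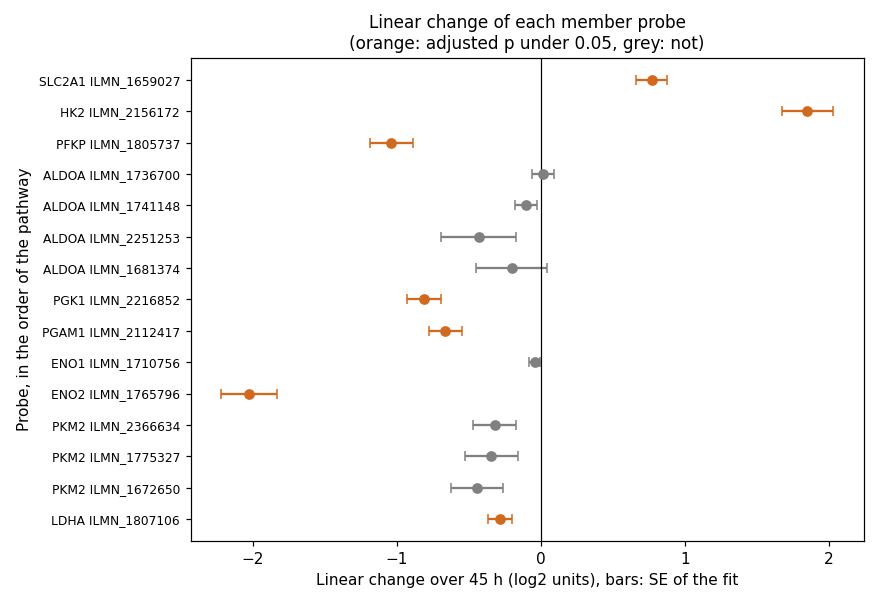
Linear change over 45 h of each member probe in log2 units (horizontal axis), in the order of the pathway from SLC2A1 at the top to LDHA. Points are the fitted change, bars the SE of the fit over 16 arrays, and orange marks an adjusted p under 0.05. HK2 (1.85) and SLC2A1 (0.77) lie to the right of 0, and ENO2 (-2.03), PFKP (-1.04), PGK1 (-0.81), PGAM1 (-0.66) and LDHA (-0.28) to the left.

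The control regions of the members are shown here because genes of 1 pathway moved in opposite directions. The 250 bases before the most upstream RefSeq start of each gene (GRCh38.p14) were searched on both strands for ACGTG and for GCGTG, the core letters of the hypoxia response element bound by HIF1. They were also searched for CACGTG, the E-box bound by MYC and by the carbohydrate response factors, and each E-box also counts as a match of ACGTG in both orientations. All 10 members matched a promoter, PKM2 under its present symbol PKM. Of 27305 promoters in the table, 18.64% held ACGTG, 31.92% held GCGTG and 6.46% held CACGTG. Among the members 5 held ACGTG, 3 held GCGTG and 1, LDHA, held CACGTG. One or both of the core motifs was present in 6 members and in 43.07% of all promoters, and SLC2A1, PFKP, PGAM1 and PKM2 held neither within this window. The windows of 100 bases with most of these letters are given, 5′ to 3′ on the strand of the gene, for the members past the linear threshold that hold any. Capitals mark these core letters in either orientation, so that ACGTG on the opposite strand appears as CACGT here.
HK2, chr2:74834027-74834126, plus strand: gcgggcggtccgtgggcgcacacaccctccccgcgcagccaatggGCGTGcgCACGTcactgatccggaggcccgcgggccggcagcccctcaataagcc
PGK1, chrX:78104001-78104100, plus strand: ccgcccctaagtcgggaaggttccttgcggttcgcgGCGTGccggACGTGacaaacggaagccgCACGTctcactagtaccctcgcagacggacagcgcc
ENO2, chr12:6914414-6914513, plus strand: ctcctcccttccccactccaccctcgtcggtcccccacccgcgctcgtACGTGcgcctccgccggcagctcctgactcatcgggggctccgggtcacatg
LDHA, chr11:18394433-18394532, plus strand: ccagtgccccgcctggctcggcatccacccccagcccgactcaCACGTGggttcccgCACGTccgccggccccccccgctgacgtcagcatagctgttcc
The same letters stand before HK2, whose signal rose, and before PGK1, ENO2 and LDHA, whose signals fell. They are a description of sequence, and binding was not measured.

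The arrays were alike in overall signal. The median intensity lay between 242 and 384, the brightest probe of each array between 71727 and 74152, and between 57.5% and 61.5% of probes were detected. Earlier work on these data had noticed that runs of 4 neighbouring arrays, beginning at 0, 12, 24 and 36 h, stand apart from each other, and the labels name no batch. A change at 12, 24 or 36 h and a difference between these sets cannot be told apart. All 8 luminal and HER2 amplicon genes on the array were detected on every array, and KRT19, ERBB2 and GRB7 reached at least 98.0% of the brightest signal. Of these 8, the luminal keratins KRT18 (-0.74 ± 0.10) and KRT8 (-0.68 ± 0.10) fell, although another KRT18 probe changed by -0.07 ± 0.16 (adjusted p = 0.746). PTPRC, a leukocyte marker, was detected on no array and CD3E on 1. Of 4 markers of fibroblast and endothelial cells, PECAM1 was detected on 16 arrays, VWF on 13, and COL1A1 and COL1A2 on 5 each, all with signals of at most 0.719% of the brightest. VWF was past the linear threshold (2.51 ± 0.28). The part of these markers in the results was not tested. The proliferation genes RRM2 (-4.36 ± 0.40), TOP2A (-2.86 ± 0.25) and MKI67 (-1.62 ± 0.25) all fell. In such bulk samples fewer cells of a kind and less RNA per cell cannot be told apart.

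Several member probes lay near the top of the scale of the arrays. Of the 15 probes, 4 reached at least 80% of the brightest signal on an array. ENO1 (ILMN_1710756) stood at 91.0% to 97.8% of it on all arrays. The brighter ALDOA probes stood at 63.1% to 95.9% (ILMN_1736700) and at 47.8% to 92.1% (ILMN_1741148), and LDHA (ILMN_1807106) at 38.7% to 86.6%. The remaining 11 probes stayed far below, PKM2 (ILMN_2366634) being the highest of them at 27.1%. HK2 and ENO2 were dim, at no more than 2.35% and 1.77% of the brightest signal. These percentages give the position of a probe on the scale and were not compared between genes as RNA levels.

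**Figure D2:**
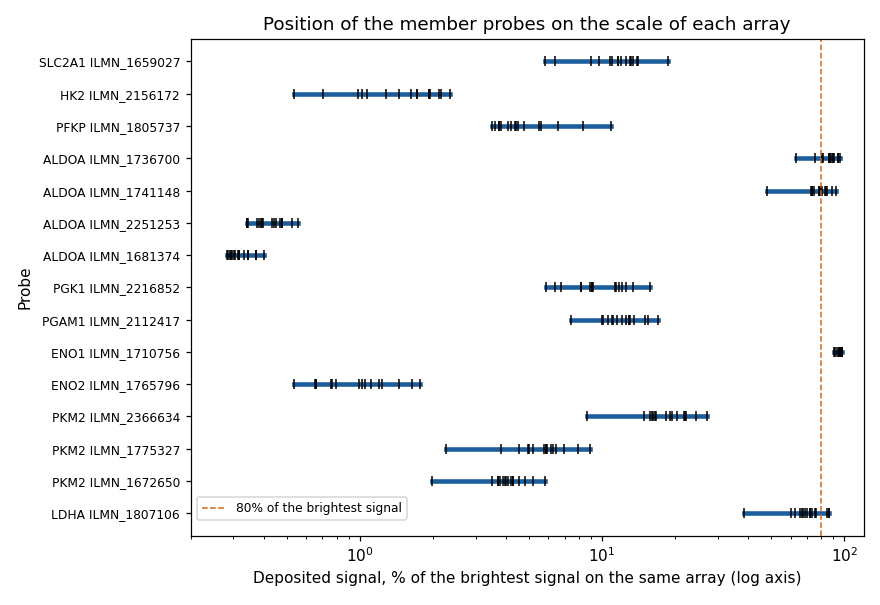
Position of each member probe on the scale of the arrays: deposited signal as a percentage of the brightest signal on the same array (horizontal log axis). Each tick is 1 of the 16 arrays, the bar spans lowest to highest, and the dashed line marks 80%. ENO1 sits between 91.0% and 97.8%, 2 ALDOA probes and LDHA cross the line on part of the arrays, and the other 11 probes lie at 27.1% or lower.

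SLC2A1 encodes GLUT1, the transporter that carries basal glucose uptake in most cells. Its single probe (ILMN_1659027) had log2 levels of 12.80, 12.35, 12.65 and 12.67 at 0, 3, 6 and 9 h, and 12.97, 13.06, 12.97 and 12.86 from 12 to 21 h. It then stood at 13.12, 13.12, 13.13 and 13.06 from 24 to 33 h and at 13.26, 13.27, 13.30 and 13.38 from 36 to 45 h. The lowest level was at 3 h and the highest at 45 h, a range of 2.05-fold, and all 4 arrays up to 9 h were below all 12 later ones. The linear change was 0.77 ± 0.11 log2 units (limma, adjusted p = 7.16e-06), with no departure from a straight line past the threshold (adjusted p = 0.882). The level went up mainly between the sets of arrays, by 0.29, 0.25 and 0.20 at 12, 24 and 36 h, while inside the sets, last array minus first, it changed by -0.13, -0.11, -0.06 and 0.13. With the set as a factor the linear change was -0.086 ± 0.38 (adjusted p = 0.948). With a step between 21 and 24 h it was 0.71 ± 0.28 (adjusted p = 0.0773), near the main value but with a larger error. Change with time and differences between sets cannot be told apart in this course.

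HK2 encodes hexokinase 2, which phosphorylates glucose and is the inducible isozyme of many tumours. Its probe (ILMN_2156172) had log2 levels of 9.40, 8.89, 8.44 and 9.12 from 0 to 9 h and of 9.21, 9.33, 9.85 and 9.75 from 12 to 21 h. The levels were 9.85, 9.91, 10.11 and 10.13 from 24 to 33 h and 10.48, 10.49, 10.39 and 10.67 from 36 to 45 h. HK2 thus first went down, to its lowest level at 6 h, and ended 4.66-fold above that level at 45 h. The linear change was 1.85 ± 0.18 log2 units (adjusted p = 6.31e-08), the largest rise among the members. Unlike SLC2A1, HK2 also went up inside the later sets, by 0.54, 0.29 and 0.19 (last array minus first), after a change of -0.29 in the first set. With the set as a factor its change was 0.89 ± 0.79 (adjusted p = 0.651), of the same sign and with a larger error.

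PFKP encodes the platelet form of phosphofructokinase, the committing step of glycolysis. Its probe (ILMN_1805737) had log2 levels of 12.98, 12.84, 12.45 and 11.98 from 0 to 9 h, and of 11.37, 11.03, 11.33 and 11.22 from 12 to 21 h. From 24 h on, the 8 levels lay between 11.47 and 11.61. PFKP therefore dropped early, to 3.87-fold below its starting level at 15 h, and recovered little after that. The linear change was -1.04 ± 0.15 (adjusted p = 9.35e-06) and the departure from a straight line had an adjusted p of 8.26e-05. The drop ran through the first set (-0.998 from 0 to 9 h) as well as across the boundary to 12 h (-0.61), and the later sets changed by -0.15, -0.06 and 0.06. Without the 0 h array the linear change was -0.72, and it stayed past the threshold.

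ALDOA encodes aldolase A, which splits fructose 1,6-bisphosphate, and was the member with most probes. The log2 levels of the brightest probe (ILMN_1736700) were lowest at 15 h (15.61), had a median of 15.95 and were highest at 30 h (16.04). Those of the second (ILMN_1741148) were lowest at 45 h (15.50), had a median of 15.81 and were highest at 6 h (15.95). The linear changes of these probes were 0.02 ± 0.07 (adjusted p = 0.876) and -0.10 ± 0.08 (adjusted p = 0.297). The sign of the first turned with median scaling (-0.15) and with cyclic loess (-0.03). The remaining ALDOA probes (ILMN_2251253 and ILMN_1681374) had signals of at most 0.556% of the brightest, and changed by -0.43 ± 0.26 (adjusted p = 0.185) and -0.20 ± 0.25 (adjusted p = 0.529). All 4 probes were thus without a trend past the threshold, and the brighter pair shared a dip: both were lower at 12 to 21 h than at 3 to 9 h.

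PGK1 encodes phosphoglycerate kinase 1, the first step of glycolysis to make ATP, and PGAM1 the mutase of the next step. PGK1 (ILMN_2216852) had log2 levels of 13.13, 13.27, 13.15 and 13.17 from 0 to 9 h, and of 12.35 to 12.88 afterwards. PGAM1 (ILMN_2112417) had levels of 13.43, 13.47, 13.67 and 13.46 from 0 to 9 h, and of 12.72 to 13.08 afterwards. Both courses were thus high on the first 4 arrays and lower on each of the 12 that followed. The linear change was -0.81 ± 0.12 for PGK1 (adjusted p = 1.33e-05) and -0.66 ± 0.11 for PGAM1 (adjusted p = 8.17e-05). With a step between 21 and 24 h PGK1 was not past the threshold (-0.82 ± 0.31, adjusted p = 0.0687). With the set as a factor the change was -0.28 ± 0.45 for PGK1 (adjusted p = 0.829) and -0.52 ± 0.34 for PGAM1 (adjusted p = 0.51). Inside the sets, last array minus first, PGK1 changed by 0.04, 0.13, -0.23 and 0.01, and PGAM1 by 0.02, -0.27, 0.01 and -0.29. PGK1 and PGAM1 have processed copies elsewhere in the genome, and the share of signal from such copies cannot be told from these probes.

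The enolases, which make phosphoenolpyruvate, behaved differently on their probes. ENO1, the enolase of most cells, had log2 levels between 16.04 (12 h) and 16.13 (0 h), a range of 1.07-fold with a residual SD of 0.02 log2 units, and a linear change of -0.04 ± 0.04 (adjusted p = 0.383). This flat course was measured at the top of the scale, and whether the scale held it there was not tested. ENO2, the form known from neurons and expressed in many tumours, had levels of 10.13, 10.22, 10.13 and 10.18 from 0 to 9 h and of 9.26, 8.91, 8.85 and 8.76 from 12 to 21 h. Its levels were 8.76, 8.75, 8.31 and 8.44 from 24 to 33 h and 8.50, 8.61, 8.56 and 8.16 from 36 to 45 h. ENO2 held steady for the first 4 arrays, dropped by 0.92 log2 units between 9 and 12 h, and was 4.17-fold lower at 45 h than at its highest. Its linear change of -2.03 ± 0.19 (adjusted p = 5.51e-08) was the largest fall among the members, and the fall was not even (departure from linearity, adjusted p = 0.0392). Within the sets after the first it changed by -0.50, -0.32 and -0.34. With the set as a factor the change was -1.47 ± 0.54 (adjusted p = 0.201, unadjusted p under 0.05).

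PKM2 is the array's symbol for the gene of pyruvate kinase M, which makes pyruvate and ATP. The probes do not say which splice form they measure. The log2 levels of ILMN_2366634 were lowest at 45 h (12.91), had a median of 13.69 and were highest at 24 h (14.05). Those of ILMN_1775327 were 10.90 at 45 h, 12.00 at the median and 12.30 at 9 h, and those of ILMN_1672650 were 10.70 at 45 h, 11.49 at the median and 11.90 at 6 h. The probes shared 2 drops, one between 9 and 12 h (by 0.48, 0.65 and 0.52) and one between 42 and 45 h (by 0.85, 1.22 and 0.80). At 12 to 21 h ILMN_1672650 stood between 11.16 and 11.37, below the 11.50 to 11.90 of the first set. Their linear changes were -0.32 ± 0.15 (adjusted p = 0.0859), -0.34 ± 0.18 (adjusted p = 0.132) and -0.44 ± 0.18 (adjusted p = 0.051). The last of these, ILMN_1672650, was past the threshold with median scaling (adjusted p = 0.0403), with cyclic loess (0.0272) and among probes detected on all 16 arrays (0.0497). Without the 42 h array the 3 probes were all past it (0.0332, 0.0298 and 0.0293). Without the 45 h array these were -0.05, 0.03 and -0.21, so the size of the trend rests on that array. ILMN_1775327 was past the threshold of the F-test (adjusted p = 0.0308), with no linear trend past it.

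LDHA encodes the lactate dehydrogenase subunit that favours lactate. Its log2 levels (ILMN_1807106) lay between 15.53 and 15.79 from 0 to 42 h and at 15.12 at 45 h, where the signal was 27750 against a median of 51944. The linear change was -0.28 ± 0.08 (adjusted p = 0.00649). It was -0.13 ± 0.07 without the 45 h array (adjusted p = 0.154) and was not past the threshold with array weights (-0.18, adjusted p = 0.0579), so this call rests on 1 array. Before 45 h its signal stood at 60.2% to 86.6% of the brightest and passed 80% at 18, 21 and 27 h.

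**Figure D3:**
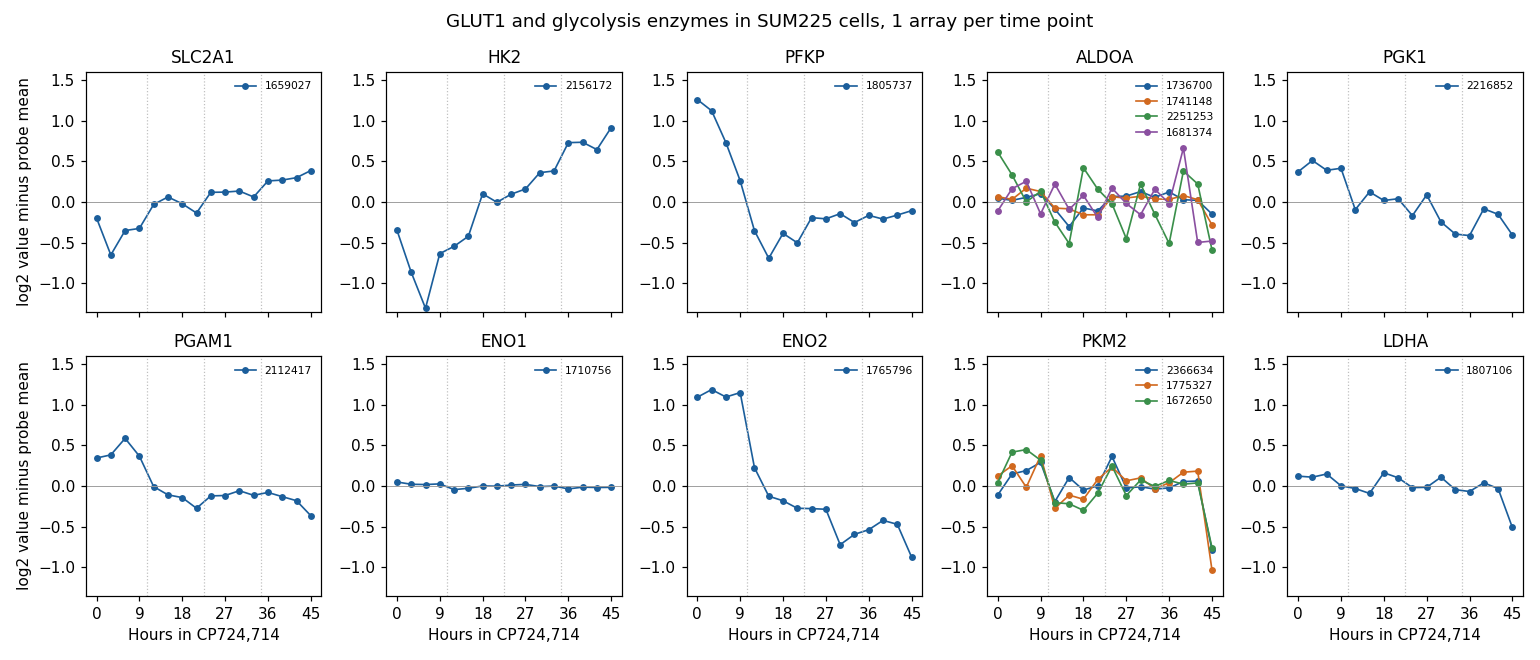
Course of each member over the 16 arrays: log2 level minus the mean of the probe (vertical axis, log2 units) against hours in CP724,714, with a line for each probe named by its number. Dotted lines separate the sets of 4 arrays. HK2 climbs from 6 h, PFKP drops from 0 to 15 h, ENO2 drops between 9 and 12 h, ENO1 stays flat, and the PKM2 probes and LDHA drop at 45 h.

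The 45 h array was low for part of the members. Of the 15 probes, 8 had their lowest level there, and these came from PKM2, ALDOA, PGAM1, ENO2 and LDHA. Probes of the same gene are not independent, and the share of all probes with their lowest level at 45 h was not counted. Between 42 and 45 h the median step was -0.25 log2 units over the member probes, of which 10 went down. Over all probes tested the median step was 0.01 and 48.5% went down, and over the 2645 probes with a mean log2 level of 12 or more it was 0.0018. HK2 (0.27), SLC2A1 (0.09), PFKP (0.05), the dim ALDOA probe ILMN_1681374 (0.018) and ENO1 (0.0021) did not share the drop. Without the 45 h array 6 member probes were time-dependent in place of 8, and 2 rose and 4 fell, LDHA being the call lost.

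The time of each change was examined by comparing periods, of which the earliest held the 3, 6 and 9 h arrays (n = 3) and the others began at 12, 24 and 36 h (n = 4 each). The error is the spread inside periods, which also holds true change within them. The bounds at 12, 24 and 36 h are also those of the sets of 4 arrays. No contrast of periods can thus tell a change with time from a difference between sets. Most of the movement fell between the first 2 of these periods. Between 3 to 9 h and 12 to 21 h, SLC2A1 and HK2 were higher and 7 probes were lower, namely PFKP, the brighter pair of ALDOA probes, PGK1, PGAM1, ENO2 and PKM2 ILMN_1672650. Of all probes tested 14.8% were higher and 12.9% lower in this contrast. ENO2 changed by -1.23 ± 0.14 log2 units (adjusted p = 4.91e-06) and PFKP by -1.19 ± 0.13 (adjusted p = 3.36e-06). PGAM1 changed by -0.58 ± 0.08, PKM2 ILMN_1672650 by -0.60 ± 0.15, PGK1 by -0.42 ± 0.10 and the ALDOA probes by -0.20 ± 0.06 and -0.23 ± 0.07. The calls of the ALDOA pair were not stable, as leaving out the 6 h array took both past 0.05 (adjusted p = 0.0572 and 0.0811). HK2 changed by 0.72 ± 0.16 and SLC2A1 by 0.41 ± 0.08.

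Later periods brought few calls. Between the periods from 12 h and from 24 h 1 probe was higher, ALDOA ILMN_1736700 (0.22 ± 0.06, adjusted p = 0.0175), and 0 were lower, against 5.20% higher and 4.11% lower of all probes. At an unadjusted p under 0.05 the members' counts were 4 and 2, against 11.5% and 10.7% of all probes. The ALDOA call was lost with median scaling (adjusted p = 0.238) and cyclic loess (0.189). Between the periods from 24 h and from 36 h 0 member probes were higher and 0 lower in limma, against 0.900% and 3.11% of all probes. At an unadjusted p under 0.05 the counts were 2 and 0, against 7.51% and 7.88% of all probes. HK2 changed by 0.51 ± 0.15 (adjusted p = 0.0658) in that last contrast and by 0.47 ± 0.15 (adjusted p = 0.0559) in the one before.

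Between 3 to 9 h and 36 to 45 h, 2 member probes were higher (23.7% of all probes) and 5 lower (18.7%). HK2 changed by 1.69 ± 0.16 log2 units, or 3.23-fold (adjusted p = 9.4e-08), and SLC2A1 by 0.75 ± 0.08, or 1.68-fold (adjusted p = 3.1e-07). ENO2 changed by -1.72 ± 0.14 (adjusted p = 1.53e-08), PFKP by -0.86 ± 0.13 (adjusted p = 3.73e-05), PGK1 by -0.70 ± 0.10, PGAM1 by -0.63 ± 0.08 and PKM2 ILMN_1672650 by -0.55 ± 0.15. The 4 late levels of HK2 (10.39 to 10.67) were all above the 3 early ones (8.44 to 9.12), and those of ENO2 (8.16 to 8.61) all below (10.13 to 10.22). All late levels lay above all early ones for 2 member probes (22.7% of all probes) and below for 7 (18.1%), of which ENO1 and PKM2 ILMN_2366634 were not called. The median change was -0.28 over the member probes and 0.05 over all probes. These calls stayed past the threshold without the 45 h array, where PKM2 ILMN_1672650 changed by -0.35.

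**Figure D4:**
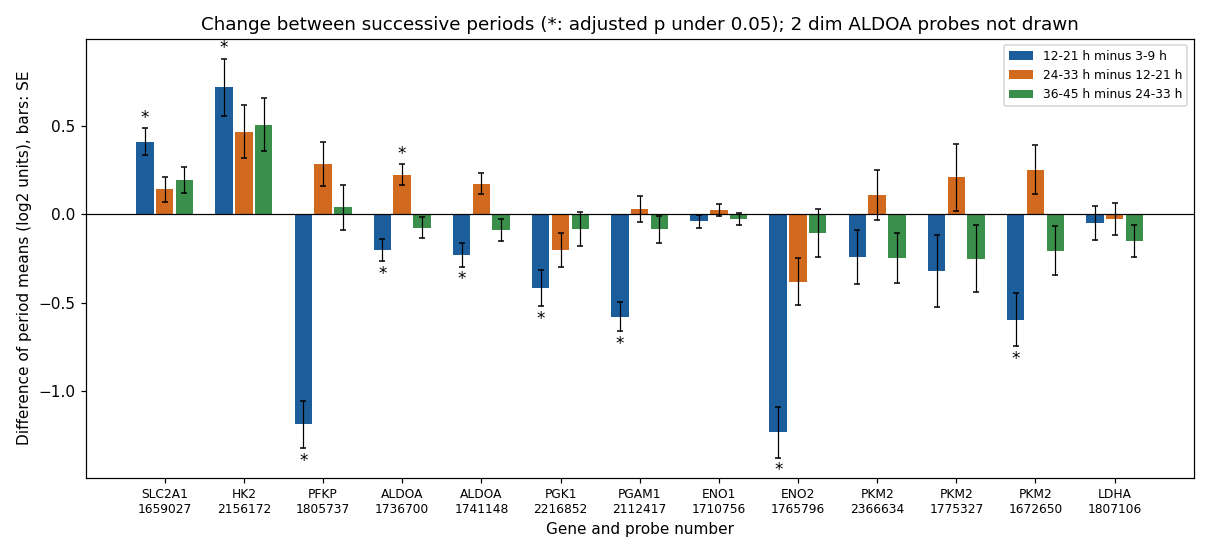
Difference of mean log2 level between successive periods (vertical axis, log2 units) for 13 member probes, with SE bars and a star for an adjusted p under 0.05. Blue is the period from 12 h minus that from 3 h, orange the period from 24 h minus that from 12 h, and green the period from 36 h minus that from 24 h. The blue bars of ENO2 (-1.23) and PFKP (-1.19) are the longest, all stars but 1 are on blue bars, and HK2 has upward bars in all 3 contrasts.

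The boundary between 9 and 12 h separated several courses completely. All 4 arrays up to 9 h were above all 12 later arrays for PFKP, PGK1, PGAM1 and ENO2, with gaps of 0.37, 0.25, 0.35 and 0.87 log2 units, a pattern seen in 7.91% of all probes tested. They were all below for SLC2A1, a pattern seen in 6.96%. With the set of arrays as a factor beside a straight line, limma called 0 member probes, and 1, ENO2, at an unadjusted p under 0.05. Of all probes 0.900% were called in that fit. Each set spans only 9 h, so that its errors are larger.

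Among the other transporters of glucose and lactate 18 genes were on the array and 10 could be tested. Of these 3 rose and 4 fell, against 26.0% and 21.7% of all probes. This list and the following ones are given by the probe with the highest mean level of each gene. SLC2A12 (GLUT12) rose by 1.44 ± 0.23 log2 units and SLC2A11 (GLUT11) by 1.36 ± 0.17, both with signals under 0.9% of the brightest. A further SLC2A11 probe, also detected on all arrays, changed by -0.17 ± 0.17 (adjusted p = 0.439). Another, detected on 11 arrays, rose by 1.64 ± 0.25 (adjusted p = 1.74e-05). SLC16A3, the lactate exporter MCT4, had a linear change of 0.44 ± 0.10 but did not rise evenly (departure from linearity, adjusted p = 1.4e-04). Its log2 level was 12.94 at 0 h and 13.04 at 45 h. Between these, its means were 12.57, 12.14, 12.65 and 12.93 in the periods from 3, 12, 24 and 36 h. SLC2A6 (GLUT6) fell by 1.47 ± 0.42, BSG, the chaperone of the lactate transporters, by 0.61 ± 0.17, and SLC5A1, the sodium-coupled glucose transporter, by 0.59 ± 0.10. SLC2A6 did not fall evenly, with mean log2 levels of 9.74, 7.51, 8.76 and 8.15 in the periods from 3, 12, 24 and 36 h. BSG was lowest at 45 h (12.22, against a median of 13.53), and a fit without that array was not made for it. The median linear change of the 10 genes was -0.04.

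Of the isozymes and steps of glycolysis outside the members 21 genes were on the array and 14 were tested. Of these 1 rose and 5 fell, against 26.0% and 21.7% of all probes, with a median linear change of -0.13. HK1, the hexokinase of most cells, fell by 0.34 ± 0.07 (adjusted p = 7.55e-04) on a probe that reached 37.4% of the brightest signal, and is named here after its values were seen because HK2 rose at the same step. A further HK1 probe, detected on 10 arrays, changed by -0.49 ± 0.26 (adjusted p = 0.127). LDHB, the other main lactate dehydrogenase subunit, fell by 1.35 ± 0.30, TPI1, triosephosphate isomerase, by 0.40 ± 0.11 and GPI, glucose phosphate isomerase, by 0.38 ± 0.14. TPI1 and GPI were lowest at 45 h (15.05 and 13.04, against medians of 15.41 and 13.59). A fit without that array was not made for them. LDHB did not fall evenly, with mean log2 levels of 11.91, 10.47, 11.13 and 10.43 in the periods from 3, 12, 24 and 36 h. ENO3, the muscle enolase, rose by 0.88 ± 0.23 from signals of at most 1.22% of the brightest. GAPDH changed by -0.09 ± 0.04 (adjusted p = 0.0596) on a probe that reached 99.8% of the brightest signal and by -0.83 ± 0.07 (adjusted p = 2.41e-08) on a dimmer one. Thus ALDOA, ENO1, LDHA, TPI1 and GAPDH all had a probe that reached at least 80% of the brightest signal.

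Of the enzymes that set the level of fructose bisphosphates, which control phosphofructokinase, 8 genes were on the array and 5 could be tested. Of these 3 rose and 1 fell, against 26.0% and 21.7% of all probes, with a median of 0.87. FBP1, the fructose bisphosphatase of gluconeogenesis that reverses the PFKP step, rose by 1.73 ± 0.11 (adjusted p = 2.95e-10), with its lowest log2 level at 0 h (11.78) and its highest at 39 h (13.50). PFKFB3, which makes the activator of phosphofructokinase, rose by 1.45 ± 0.21 (10.71 at 3 h, 12.74 at 39 h) and PFKFB2 by 0.87 ± 0.12. PFKFB4 fell by 0.40 ± 0.16 (adjusted p = 0.0419), and C12orf5 (TIGAR), a fructose bisphosphatase, changed by 0.22 ± 0.14 (adjusted p = 0.204). While PFKP fell, FBP1 and PFKFB3, whose products act in opposite directions on this step, both rose.

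The branches that leave glycolysis were mixed. Of 12 genes tested 5 rose and 3 fell, against 26.0% and 21.7% of all probes, with a median of 0.21. GPD1L, which belongs to the glycerol 3-phosphate dehydrogenases, rose by 0.44 ± 0.09, TALDO1, transaldolase of the pentose phosphate pathway, by 0.35 ± 0.09 and UGP2, which makes UDP-glucose, by 0.30 ± 0.08. A further UGP2 probe, detected on 16 arrays, changed by 0.08 ± 0.11 (adjusted p = 0.575). PHGDH, the first enzyme of serine synthesis, fell by 1.14 ± 0.09 and GYS1, glycogen synthase, by 0.54 ± 0.12.

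Of the factors that control transcription of the pathway 13 were tested. Of these 5 rose and 2 fell, against 26.0% and 21.7% of all probes, with a median of 0.12. TXNIP, a glucose-responsive gene whose product lowers GLUT1 at the cell surface, rose by 0.93 ± 0.11, from 12.46 at 0 h to 13.87 at 45 h. ARNT, the partner of HIF1A, rose by 0.79 ± 0.19 and MLX, the partner of the carbohydrate response factors, by 0.66 ± 0.14. A further ARNT probe, detected on 11 arrays, changed by 0.59 ± 0.25 (adjusted p = 0.0563). A further MLX probe, detected on 7 arrays, changed by 0.16 ± 0.27 (adjusted p = 0.66). MLXIPL, which encodes the carbohydrate response factor ChREBP, fell by 1.33 ± 0.21 and EGLN3, a prolyl hydroxylase induced by HIF, by 0.91 ± 0.26. The brighter ARNT probe and the MLXIPL probe were dim, at no more than 0.68% and 0.83% of the brightest signal. The members of this list thus moved in both directions, as did the members of glycolysis.

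The genes with courses most like those of HK2 and ENO2 were found by Pearson's r over the 16 log2 levels among 12330 probes detected on all arrays. Nearest to HK2 were RDHE2 (SDR16C5 in RefSeq, r = 0.97), CYP4Z1 (r = 0.96) and FN5 (SMCO4 in RefSeq, r = 0.96). Nearest to ENO2 were DONSON (r = 0.98), POLE (r = 0.98) and ADA (r = 0.98). SDR16C5 encodes a retinol dehydrogenase, POLE the catalytic subunit of a replicative DNA polymerase and ADA adenosine deaminase. The arrays are shared by all of these courses, and time runs through all of them, so r describes likeness of shape alone.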

How the data were processed

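RNA of SUM225 cells at 16 times in CP724,714 was measured on 1 Illumina bead array each. The deposited table holds a linear signal intensity per probe, neither background-subtracted nor normalized by the authors, and a deposited detection p-value. Array version and scanning software for these samples are not given in the sources used here. Every value column was used (0 were left unmapped). Signals were corrected with neqc of limma 3.58.1 in R 4.3.3 (offset 16, quantile normalization, log2), which shrinks the changes of dim probes. A probe was tested if its detection p was below 0.05 on 3 or more arrays. A cubic in hours and, separately, a factor of 5 periods were fitted with lmFit and eBayes (intensity trend), and two-sided p-values were adjusted by Benjamini-Hochberg over 16110 probes at 0.05. Both fits were tested on simulated data with independent noise and no differences between the sets of arrays, so such differences were not covered. The labels give 1 sample per time point, so p-values measure scatter around a course. Named genes were the members, and from each further list the 3 largest rises and falls past the linear threshold, with GAPDH and TPI1 whatever their values, and the 3 genes most like HK2 and ENO2. A gene that this rule names is not reported here. Members, lists and period bounds were chosen with earlier results of these data known. Sequences came from RefSeq's promoter table. Alternatives changed the background, offset, normalization, filter, weights, time model and arrays used. Figures used matplotlib 3.10.9 in Python 3.11.15.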

Additional observations from a re-analysis of the deposited data

How the results depend on the processing

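Each value was recomputed without background correction or with an offset of 50, with cyclic loess or median scaling, with all probes or those detected on 16 of 16 arrays, with array weights, a step between 21 and 24 h, the 12 h set as a factor, a straight line, 1 probe per gene, without probes near the top of the scale, and with each array left out. Of 884 values 821 kept their direction and call (for counts, a ratio of 1.5 at most). A value called in neither fit also counts as kept. Of the 884, 576 came from fits with a single array left out, which share most arrays with the main fit, and 542 of these were kept. Members with a linear trend numbered 4 with the step and 0 with the set as a factor. Members departing from a straight line numbered 1 with no filter, 4 with array weights and 1 to 8 with an array left out (8 without 0 h). These values changed sign: ALDOA ILMN_1736700 to -0.15 with median scaling, -0.026 with cyclic loess, -0.31 with the step and -0.16 with the set, and between -0.020 and 0.083 with an array left out; ALDOA ILMN_2251253 to 0.38 with the step and 0.097 with the set; ENO1 to 0.027 and SLC2A1 to -0.086 with the set; LDHA to 0.0027 with the step; and PKM2 ILMN_1775327, between -0.46 and 0.025 with an array left out. The cause was not tested. HK2 (1.53 to 1.87), SLC2A1, PFKP, PGK1, PGAM1 and ENO2 (-2.12 to -1.57) stayed past the linear threshold in the 8 settings other than the step and the set, and with each array left out. No paired analysis was possible because only a single array covers any given time. Precision is limited by 16 arrays, and for bright probes by the top of the scale.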
